A study of Mus musculus with 206 samples.

Results

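Histone H3 lysine 27 acetylation (H3K27ac) was examined at 9 genes that mark striatal projection neurons: Drd1, Drd2, Adora2a, Ppp1r1b, Pde10a, Rgs9, Six3, Isl1 and Rarb. The genes were listed by name, with earlier results of these data known. They were followed in the peak lists as 9 of 21802 protein-coding promoters, where a promoter held a peak if one lay within 1 kb of any protein-coding transcript start of the gene. They were also followed in the consensus region lists of 4 brain regions, where a region belonged to the gene with the nearest protein-coding start within 100 kb. That rule gave 97 of 60013 regions in striatum, 40 of 18272 in prefrontal cortex (PFC), 9 of 16201 in hippocampus and 5 of 13788 in hypothalamus, or 151 of 108274 in all.

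The mice were wild-type C57BL/6NTac animals exposed to morphine or saline before and after birth and challenged as adults with lipopolysaccharide (LPS, a bacterial immune stimulus) or saline. The groups were MOR-LPS, SAL-LPS, MOR-SAL and SAL-SAL, named by the perinatal and then the adult treatment. Dams of MOR pups carried a minipump delivering morphine at 10 mg/kg per day, and MOR pups were injected with 10 mg/kg 2 times a day on postnatal days 1 to 14. Pups of every group were cross-fostered to drug-naive dams, and the brains were taken in adulthood, 2 h after the LPS or saline challenge. Each library came from 10000 nuclei of 1 brain region of 1 animal, sorted for NeuN, a protein of neuronal nuclei, and immunoprecipitated on a microfluidic device (MOWChIP-seq). The striatum had 45 libraries (15 MOR-LPS, 13 SAL-LPS, 7 MOR-SAL, 10 SAL-SAL), PFC had 42 (14, 11, 9 and 8 in the same order), hippocampus had 44 (10, 12, 11 and 11) and hypothalamus had 41 (10, 11, 12 and 8). PFC libraries were made with a different kit from those of the other brain regions, so that kit and brain region cannot be told apart in any comparison with PFC.

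Striatal projection neurons are the GABAergic output neurons of the striatum and most of its neurons. Direct pathway neurons carry the dopamine D1 receptor, which raises cyclic AMP (cAMP), and indirect pathway neurons carry the dopamine D2 receptor, which lowers it, together with the adenosine A2a receptor, which raises it. Both kinds hold a shared set of cAMP-signalling proteins. H3K27ac marks active promoters and enhancers, and genes that define a cell type often carry wide acetylated domains in that cell type.

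Peak lists differed in length between libraries, and a longer list reaches weaker peaks. The 45 striatum lists held 10811 to 109977 peaks (median 57042), the 42 PFC lists 11306 to 143527 (median 72928.5), the 44 hippocampus lists 13021 to 143124 (median 75966) and the 41 hypothalamus lists 20170 to 135368 (median 52991). Promoters were therefore compared in lists of equal length, the 10811 peaks of smallest p in each library, and values from the full lists are given beside them. Within a library each promoter was ranked by the -log10 p of its highest peak, as a percentile from 0 to 100 of all promoters. Promoters without a peak shared 1 tied rank, which lay between 36.7 and 47.6 in the lists of equal length. A gene without a peak was not above the peak caller's threshold in that library, which does not show that acetylation was absent.

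Several libraries went against their labels or stood apart. In 13 of the 42 PFC libraries (4 MOR-LPS, 2 SAL-LPS, 3 MOR-SAL, 4 SAL-SAL), at most 1 of 10 markers of cortical projection neurons (such as Tbr1, Neurod6 and Slc17a7) had a promoter peak in the full list, although those lists held 35440 to 112878 peaks. The same was true of 31 of 45 striatum, 4 of 44 hippocampus and 16 of 41 hypothalamus libraries. These 13 PFC libraries had peaks at a median of 8 (range 5 to 9) of the 9 genes and 25 (17 to 28) of 28 other genes of striatal projection neurons, against 6 (2 to 9) and 20 (8 to 28) in the other 29 PFC libraries. Whether they held tissue or nuclei of the striatum was not tested, and the comparisons with PFC are given with and without them. In 1 PFC library (MOR-SAL male 13-1, 11306 peaks) none of 10 general neuron markers had a promoter peak, against at least 3 in every other library. The median Spearman correlation of its promoter ranks with the other libraries was -0.12, against 0.26 or more for the rest. In 10 libraries at least 5 of 10 oligodendrocyte markers (such as Mbp and Mog) had a promoter peak in the list of equal length, and 6 of them were striatum libraries (5 MOR-LPS and 1 SAL-SAL).

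**Figure D1:**
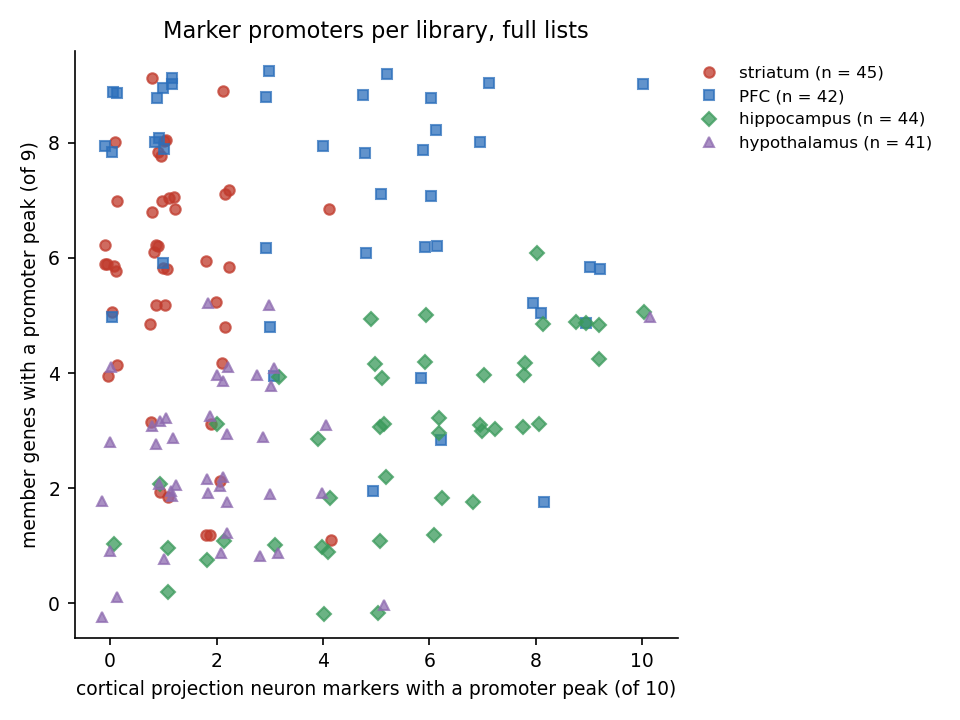
Number of the 9 striatal genes (vertical axis) against number of 10 cortical projection neuron markers (horizontal axis) with a promoter peak in the full list of each library. Points are libraries, coloured and shaped by brain region and moved slightly at random so that they can be told apart. Hippocampus points lie at 6 striatal genes or fewer, while 13 PFC points lie at 5 to 9 striatal genes and at most 1 cortical marker.

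The 9 genes had promoter peaks more often in striatum and PFC than in hippocampus and hypothalamus. In the full lists a striatum library had peaks at a median of 6 of the 9 promoters (range 1 to 9), a PFC library at 8 (2 to 9), a hippocampus library at 3 (0 to 6) and a hypothalamus library at 2 (0 to 5). At least 5 of the 9 promoters held a peak in 34 of 45 striatum and 37 of 42 PFC libraries, against 8 of 44 hippocampus and 3 of 41 hypothalamus libraries. Over all 21802 promoters the mean share with a peak was 30.7% ± 10.5 in striatum, 40.0% ± 9.98 in PFC, 32.5% ± 12.4 in hippocampus and 33.0% ± 10.2 in hypothalamus (SD over libraries). In lists of equal length the medians were 2 of 9 in striatum and 3 of 9 in PFC, against 1 of 9 in hippocampus and hypothalamus. These are bulk samples of sorted nuclei, so fewer nuclei of a type and less acetylation per nucleus cannot be told apart.

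**Figure D2:**
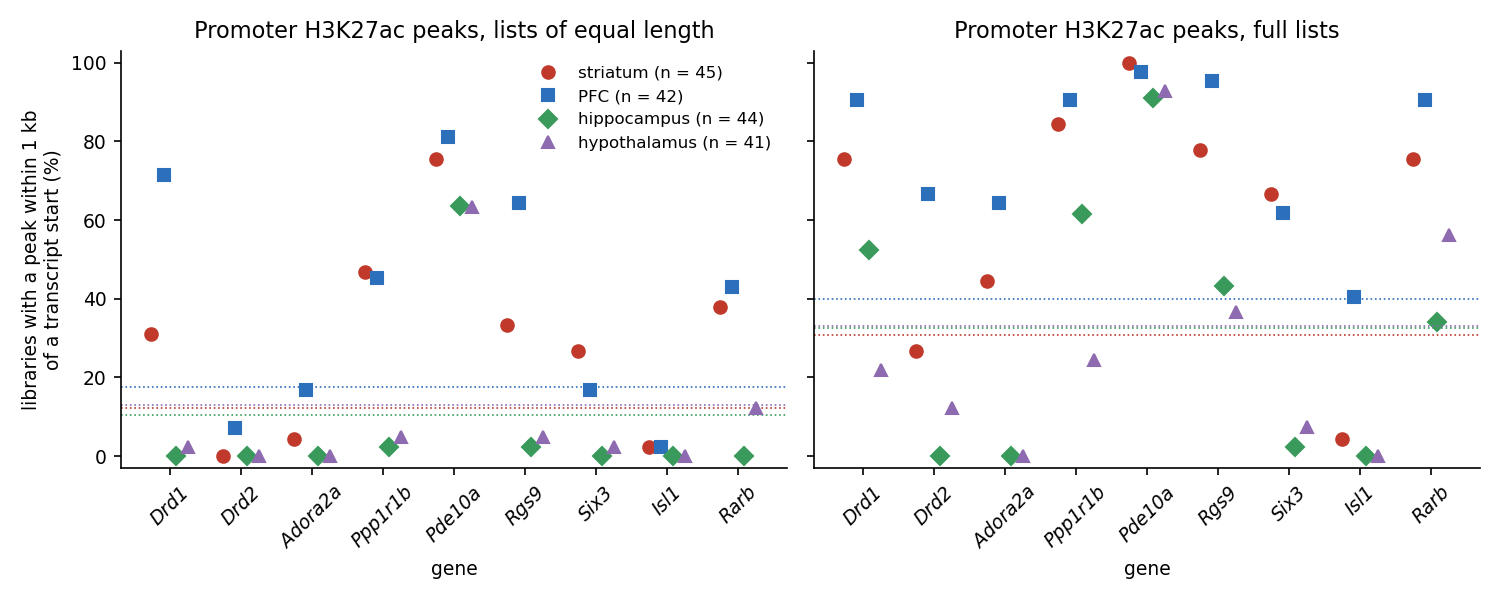
Share of libraries (%, vertical axis) with a peak within 1 kb of a transcript start of each gene (horizontal axis), in lists of equal length (left) and full lists (right). Points are the 4 brain regions, and dotted lines give the mean share over all promoters in the same colours. In the full lists Pde10a stands above 90% in every brain region, while Drd2, Adora2a and Isl1 had no peak in any hippocampus library.

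The dopamine and adenosine receptors are described first. Drd1, which encodes the D1 receptor of direct pathway neurons, lies at chr13:54051183-54055705 on the minus strand (mm10). Its promoter had a peak in 75.6% of striatum, 90.5% of PFC, 52.3% of hippocampus and 22% of hypothalamus full lists. In full lists its rank was 25.2, 79.5 and 99.7 (lowest, median, highest) in striatum, 27.1, 90.7 and 99.4 in PFC, 29.8, 52.5 and 84.7 in hippocampus and 23.8, 35.5 and 96.9 in hypothalamus. The ranges overlapped between all brain regions, and the median was highest in PFC and lowest in hypothalamus. Its peaks, where present, had a median enrichment over background of 4.91 in striatum, 10.0 in PFC, 4.58 in hippocampus and 4.06 in hypothalamus. Restricting every library to equal length left a Drd1 peak in 31.1% of striatum and 71.4% of PFC libraries, in no hippocampus library and in 2.44% of hypothalamus libraries. In the PFC libraries with at most 1 cortical marker it had a peak in 92.3% of lists of equal length, against 62.1% of the others. In the 6 striatum libraries with many oligodendrocyte markers it had none in lists of equal length, against 35.9% of the other 39.

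Drd2, the D2 receptor gene of indirect pathway neurons (chr9:49340627-49408177, plus strand), had a promoter peak less often than Drd1 in all 4 brain regions. It was found in 26.7% of striatum and 66.7% of PFC full lists, in 12.2% of hypothalamus lists and in no hippocampus list. With lists of equal length it had no peak in striatum, hippocampus or hypothalamus and was found in 7.14% of PFC libraries. Its full-list rank was 25.2, 37.9 and 89.4 (lowest, median, highest) in striatum, 24.5, 63.5 and 95.2 in PFC, 24.2, 32.6 and 46.1 in hippocampus and 22, 35.3 and 82.7 in hypothalamus. Only in PFC was the median library one with a Drd2 peak. All 12 striatum libraries with a Drd2 peak also had a Drd1 peak, and so did all 28 such PFC libraries. The Drd2 acetylation lay mainly inside the gene: the share of libraries with a peak was 0% at the start itself and highest 700 bp downstream in striatum (20%) and 900 bp downstream in PFC (47.6%).

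Adora2a, the adenosine A2a receptor gene (chr10:75316877-75334784, plus strand), was found in 44.4% of striatum and 64.3% of PFC full lists and in no hippocampus or hypothalamus list. At equal length the shares were 4.44% and 16.7%. Its full-list rank was 27.1, 42.3 and 99.8 (lowest, median, highest) in striatum and 24.8, 56.6 and 88.6 in PFC. The highest striatum library, at 99.8, had Adora2a among its strongest promoters, while the median striatum library had no peak there. Of 45 striatum libraries, 8 had peaks at both Drd2 and Adora2a, 4 at Drd2 alone, 12 at Adora2a alone and 21 at neither.

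The 250 bases upstream of the RefSeq starts (GRCm38.p6) are shown for the 2 dopamine receptors, which mark the direct and the indirect pathway, written 5′ to 3′ on the gene's strand. Capitals mark GGGCGG or its reverse complement, the GC box letters, which 32.7% of all 32851 such windows held on at least 1 strand. A window was available for 7 of the 9 genes, not for Adora2a and Ppp1r1b. Of 2 Drd1 windows the upstream one is printed, at chr13:54055659-54055908 (minus strand), the Drd2 window lies at chr9:49340153-49340402 (plus strand).
Drd1: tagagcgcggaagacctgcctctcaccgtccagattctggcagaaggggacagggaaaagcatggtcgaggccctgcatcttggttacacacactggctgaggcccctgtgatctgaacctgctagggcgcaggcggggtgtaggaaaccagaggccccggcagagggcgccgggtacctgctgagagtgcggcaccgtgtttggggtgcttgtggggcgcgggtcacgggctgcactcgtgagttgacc
Drd2: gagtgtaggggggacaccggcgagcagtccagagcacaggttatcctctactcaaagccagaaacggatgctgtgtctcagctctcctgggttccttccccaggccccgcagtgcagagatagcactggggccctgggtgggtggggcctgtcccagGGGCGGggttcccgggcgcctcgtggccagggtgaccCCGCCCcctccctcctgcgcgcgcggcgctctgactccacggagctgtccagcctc
The Drd1 window held 64.0% G and C and 15 CpG dinucleotides and no GGGCGG, and the Drd2 window 68.8%, 15 CpG and 2 copies on opposite strands, against medians of 52.4% and 6 over all windows. A peak covered at least part of the Drd1 window in 31.1% of striatum, 64.3% of PFC, 25% of hippocampus and 7.32% of hypothalamus libraries. For Drd2 these shares were 0%, 7.14%, 0% and 2.44%. The other Drd1 window, at chr13:54054781-54055030, held 60.8% G and C, 5 CpG and 1 GGGCGG, and was covered in 48.9%, 76.2%, 38.6% and 14.6% of libraries in the same order.

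Of the signalling genes, Ppp1r1b encodes DARPP-32, an inhibitor of protein phosphatase 1 that is regulated by cAMP (chr11:98348404-98357796, plus strand). Its promoter had a peak in 84.4% of striatum, 90.5% of PFC, 61.4% of hippocampus and 24.4% of hypothalamus full lists. The full-list rank was 29.2, 85.9 and 99.5 (lowest, median, highest) in striatum, 33.7, 80.3 and 97.3 in PFC, 28.9, 63.9 and 94.1 in hippocampus and 28.8, 35.8 and 90.7 in hypothalamus. The striatum median was the highest of the 4. At equal length Ppp1r1b was found in 46.7% of striatum, 45.2% of PFC, 2.27% of hippocampus and 4.88% of hypothalamus libraries. The PFC share was 92.3% in the 13 libraries with at most 1 cortical marker, against 24.1% in the other 29.

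Rgs9 encodes a regulator of G protein signalling that shortens D2 receptor signals in the striatum (chr11:109225355-109298129, minus strand). It was found in 77.8% of striatum, 95.2% of PFC, 43.2% of hippocampus and 36.6% of hypothalamus full lists, with ranks of 29.2, 79.5 and 99.5 (lowest, median, highest) in striatum, 34.0, 85.0 and 99.4 in PFC, 27.8, 45.5 and 92.8 in hippocampus and 23.8, 38.4 and 96.5 in hypothalamus. At equal length the shares were 33.3%, 64.3%, 2.27% and 4.88% in the same order. In PFC the share was 92.3% in the 13 libraries and 51.7% in the other 29. A second group of starts inside the gene, at 109250151, was found in 55.6% of striatum and 38.1% of PFC full lists and in none from hippocampus or hypothalamus.

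Pde10a encodes a phosphodiesterase that breaks down cAMP and cGMP in striatal projection neurons (chr17:8525372-8986648, plus strand). Unlike the other 8 genes it was found in most libraries of every brain region: 100% of striatum, 97.6% of PFC, 90.9% of hippocampus and 92.7% of hypothalamus full lists. The median full-list rank was 91.9, 90.4, 93.3 and 91.2 in the same order, and the ranges overlapped. Pde10a has 8 annotated starts in 6 groups over 461.3 kb, and its groups of starts are compared further on.

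The transcription factors come next. Six3, a homeodomain factor needed for indirect pathway neurons in the mouse (chr17:85613608-85629302, plus strand), was found in 66.7% of striatum and 61.9% of PFC full lists, against 2.27% of hippocampus and 7.32% of hypothalamus lists. Its full-list rank was 27.4, 71.0 and 99.9 (lowest, median, highest) in striatum, 23.1, 66.0 and 95.6 in PFC, 24.2, 32.9 and 58.5 in hippocampus and 22, 34.5 and 99.0 in hypothalamus. In PFC, Six3 had a peak in 84.6% of full lists of the 13 libraries and 51.7% of the other 29.

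Rarb, the retinoic acid receptor beta gene, which acts in the development of striatal projection neurons in the mouse (chr14:16430839-16819156, minus strand), was found in 75.6% of striatum, 90.5% of PFC, 34.1% of hippocampus and 56.1% of hypothalamus full lists. Its rank was 29.2, 79.8 and 98.1 (lowest, median, highest) in striatum, 33.3, 79.5 and 98.2 in PFC, 25.2, 40.7 and 83.4 in hippocampus and 31.3, 60.4 and 97.8 in hypothalamus. Of the 9 genes, Rarb and Pde10a were the ones found in most hypothalamus lists. The PFC share in lists of equal length was 84.6% in the 13 libraries and 24.1% in the other 29.

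Isl1, a LIM homeodomain factor that takes part in the formation of direct pathway neurons and also marks cholinergic neurons (chr13:116298281-116309689, minus strand), was the least often found at its promoter. It had a peak in 4.44% of striatum full lists (2 libraries, both MOR-LPS), in 40.5% of PFC lists and in no hippocampus or hypothalamus list. In lists of equal length it was found in 1 striatum library and in 1 PFC library, the PFC library being the one without neuron markers. Its full-list rank was 25.2, 35.1 and 89.3 (lowest, median, highest) in striatum and 24.5, 33.9 and 99.5 in PFC. A peak 2.4 kb upstream of the start was more frequent, at 31.1% of striatum libraries. The 6 Isl1 regions of the striatum consensus list had a peak in 24.4% to 57.8% of striatum full lists. The region 0.7 kb from a start had one in 46.7% of striatum and 61.9% of PFC full lists. The intron region at chr13:116298052-116302188 had one in 57.8% and 47.6%, and in 11.1% and 2.38% of lists of equal length.

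Windows of 250 bases upstream of 3 further genes are shown for genes whose promoter or, for Pde10a, internal group of starts is compared between brain regions further on. Capitals mark GGGCGG or its reverse complement in Rgs9 and Pde10a and, in Rarb, 2 copies of GTTCA separated by 6 bases. GTTCA is part of each half-site of a retinoic acid response element of the direct repeat type (DR5). The base before GTTCA belongs to the half-site, so the gap between half-sites is shorter than 6 bases. The windows lie at chr11:109298182-109298431 (minus strand) for Rgs9, chr17:8801495-8801744 (plus strand) for the internal start of Pde10a and chr14:16575477-16575726 (minus strand) for Rarb.
Rgs9: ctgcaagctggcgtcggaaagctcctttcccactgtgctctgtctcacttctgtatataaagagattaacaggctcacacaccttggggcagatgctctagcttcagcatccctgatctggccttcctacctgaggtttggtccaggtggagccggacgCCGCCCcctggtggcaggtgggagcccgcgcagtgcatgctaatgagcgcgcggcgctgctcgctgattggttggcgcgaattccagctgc
Pde10a: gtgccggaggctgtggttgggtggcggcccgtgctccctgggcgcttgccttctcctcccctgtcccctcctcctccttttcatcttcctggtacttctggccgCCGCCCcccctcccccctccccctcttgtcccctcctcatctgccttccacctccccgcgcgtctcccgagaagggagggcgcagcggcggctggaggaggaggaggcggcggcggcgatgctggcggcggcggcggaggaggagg
Rarb: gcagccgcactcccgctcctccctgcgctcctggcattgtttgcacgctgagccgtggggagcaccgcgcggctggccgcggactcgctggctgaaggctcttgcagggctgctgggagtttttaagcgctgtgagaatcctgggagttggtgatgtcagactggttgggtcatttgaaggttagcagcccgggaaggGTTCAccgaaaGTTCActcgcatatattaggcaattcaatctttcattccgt
The letters GTTCANNNNNNGTTCA, searched on both strands, were in 22 of 32851 windows (0.067%), and GTTCA alone, which the pair contains, in 30.5%. In Rarb they began 52 bases before the start. A peak covered at least part of the Rarb window in 51.1% of striatum, 69.0% of PFC, 18.2% of hippocampus and 46.3% of hypothalamus libraries. The Rgs9 window was covered in 2.22% of striatum, 14.3% of PFC, 4.55% of hippocampus and 4.88% of hypothalamus libraries. For the Pde10a window these shares were 17.8%, 2.38%, 31.8% and 9.76%. A match describes the letters and is not a measured binding site. The Rgs9 window also held TATAAA, 195 bases before the start, as did 12.4% of all windows, and the TGACGTCA letters of the cAMP response element were in none of the 9 windows printed or examined here and in 1.55% of all windows.

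Striatum was compared with each other brain region for the promoters with a peak in at least 10% of libraries in lists of equal length (7651 promoters, limma with treatment group and sex as terms, Benjamini-Hochberg adjustment over all of them). Drd1, Ppp1r1b, Pde10a, Rgs9, Six3 and Rarb passed that filter. Drd2, Adora2a and Isl1 did not and were tested in the full lists only. A gene with peaks in 1 or 2 brain regions can pass such a filter only through those regions. That bears on the count of members called and on each difference. In lists of equal length Drd1, Six3 and Rarb had a peak in 0 of 44 hippocampus libraries. Their differences from hippocampus therefore compare striatum with the tied rank of promoters without a peak.

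Against hippocampus, 5 of the 6 promoters ranked higher in striatum, where 7.82% of all promoters tested did. Ppp1r1b was higher by 22.3 ± 4.21 percentile points (SE, adjusted p = 6.87e-06 by limma), Rarb by 19.2 ± 4.10 (9.71e-05), Drd1 by 16.2 ± 4.32 (0.00297), Rgs9 by 14.8 ± 4.24 (0.00695) and Six3 by 12.5 ± 3.24 (0.00218). Pde10a did not pass (difference 5.79 ± 4.59, adjusted p = 0.463). The 5 calls held when the animal was a block and when any litter was left out. In the full lists 7 of 9 were higher, against 9.01% of all promoters: the same 5, Adora2a (20.2 ± 3.41, adjusted p = 2.32e-07) and Drd2 (13.2 ± 3.43, 0.00147).

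Against hypothalamus the same 5 promoters ranked higher in striatum, where 6.38% of all promoters did. The differences were 21.4 ± 4.28 points for Ppp1r1b (adjusted p = 6.10e-05 by limma), 15.4 ± 4.39 for Drd1 (0.00864), 14.2 ± 4.32 for Rgs9 (0.0144), 13.8 ± 4.17 for Rarb (0.0137) and 12.4 ± 3.30 for Six3 (0.00422). Pde10a differed by 7.48 ± 4.67 points (adjusted p = 0.319). Drd1 and Rgs9 lost their calls when litter 10 was left out (13.3 points, adjusted p = 0.0513, and 12.4 points, 0.0620). In the full lists 6 of 9 were higher, against 8.09% of all promoters, with Adora2a (19.9 ± 3.47, adjusted p = 1.33e-06) added. Drd2 did not pass there (8.03 ± 3.48, adjusted p = 0.0913).

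Against PFC, 2 of the 6 promoters ranked lower in striatum, where 27.4% of all promoters did, and none ranked higher, where 6.55% did. Drd1 was lower by 18.7 points (difference -18.7 ± 4.34, adjusted p = 0.000215 by limma) and Rgs9 by 12.2 points (-12.2 ± 4.27, 0.0174). The differences were 7.74 ± 3.26 for Six3 (adjusted p = 0.0518), 4.76 ± 4.23 for Ppp1r1b (0.395), 0.98 ± 4.12 for Rarb (0.876) and -1.64 ± 4.62 for Pde10a (0.811). Without the 13 PFC libraries with at most 1 cortical marker, Ppp1r1b (15.3 ± 4.29, adjusted p = 0.00259) and Rarb (10.1 ± 4.17, 0.0477) ranked higher in striatum, where 5.58% of all promoters did. Drd1 stayed lower (-12.8 ± 4.43, 0.0169), beside 27% of all promoters, and Rgs9 lost its call (-4.93 ± 4.34, 0.390). In the full lists the Drd1 starts, ranked as a group, did not pass against PFC (-10.0 ± 4.53, adjusted p = 0.0766 by limma). Without the 13 libraries that full-list difference was -5.99 ± 5.11 (0.380). Ranked in the same way without them, the Ppp1r1b starts (5.09 ± 4.99, 0.453) and the Rarb starts from 16575543 (2.38 ± 5.07, 0.753) did not pass either. The calls of Ppp1r1b and Rarb were thus limited to lists of equal length. Six3 then fell under the filter in lists of equal length and was higher in striatum in the full lists (15.5 ± 4.18, adjusted p = 0.00251), where 6.3% of all promoters were. With all PFC libraries, Rgs9 lost its call when litter 3 (-10.8, adjusted p = 0.0501), 4 (-9.56, 0.0911) or 15 (-9.22, 0.101) was left out, and Six3 gained one without litter 1 (8.96, 0.0295), 3 (9.06, 0.0297), 9 (8.83, 0.0340) or 13 (10.2, 0.00942). Leaving out only the PFC library without neuron markers gave Six3 a difference of 8.78 ± 3.25 (adjusted p = 0.0239) and kept the calls of Drd1 (-19.4 ± 4.29) and Rgs9 (-12.8 ± 4.24).

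**Figure D3:**
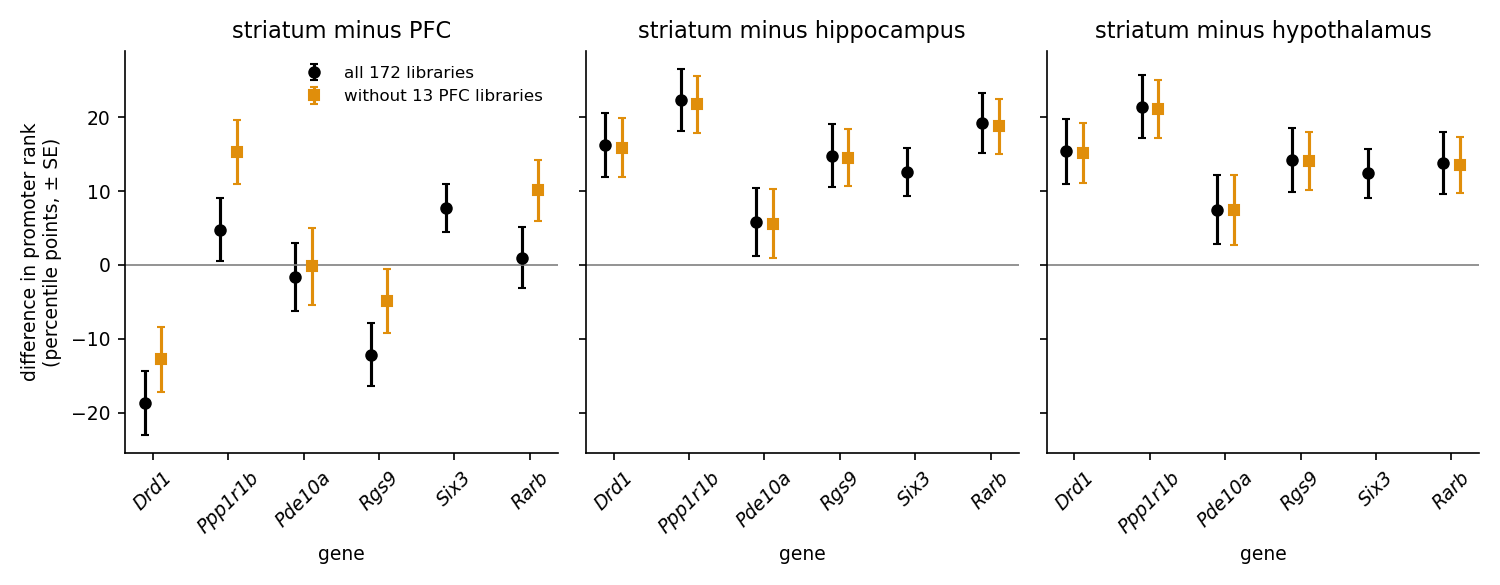
Difference in promoter rank (percentile points, striatum minus the other brain region, ± SE from limma) for the 6 genes tested in lists of equal length, one panel per brain region. Black circles use all libraries and orange squares leave out the 13 PFC libraries with at most 1 cortical marker. Without those libraries the difference from PFC is 15.3 points for Ppp1r1b and 10.1 for Rarb, against 4.76 and 0.98 with them. The 13 held peaks at both promoters more often than the other PFC libraries, so these rises were built into leaving them out. Six3 has no orange square because it then fell under the filter.

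In the full lists Drd2 ranked lower in striatum than in PFC (-12.2 ± 3.44, adjusted p = 0.00356), as did Isl1 (-8.95 ± 2.72, 0.00707), where 22.8% of all promoters were lower. Without the 13 libraries Drd2 did not pass (-5.83 ± 3.64, adjusted p = 0.224) and Isl1 was not tested, since it then had a peak in under 10% of libraries. The differences between PFC and the other brain regions depended on the same libraries. In lists of equal length Drd1, Rgs9, Rarb and Ppp1r1b ranked higher in PFC than in hippocampus (34.9, 27, 18.2 and 17.5 points) and hypothalamus (34.0, 26.4, 12.8 and 16.6 points), where 37.2% and 34.6% of all promoters did. Without the 13 libraries only Drd1 (28.7 and 28.0 points) and Rgs9 (19.4 and 19.0 points) among the 5 then tested remained so, beside 35.4% and 33.6% of all promoters. None of the 6 passed between hypothalamus and hippocampus in limma, where 18.4% of all promoters did.

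The same animal gave both a striatum and a PFC library in 26 cases. In their full lists Drd2 had a peak in striatum alone in 2 animals and in PFC alone in 14, Rarb in 3 and 9, Drd1 in 2 and 7, and Rgs9 in 1 and 6. Six3 had a peak in striatum alone in 8 animals and in PFC alone in 6. The counts were 7 and 10 for Adora2a, 1 and 9 for Isl1, 3 and 2 for Ppp1r1b and 0 and 0 for Pde10a. In lists of equal length they were 3 and 11 for Drd1, 3 and 13 for Rgs9, 3 and 6 for Rarb and 0 and 2 for Drd2. They were 8 and 6 for Ppp1r1b, 6 and 3 for Six3, 4 and 4 for Pde10a, 2 and 2 for Adora2a and 1 and 0 for Isl1. Full lists were also counted in the 20 animals whose PFC library had at least 2 cortical markers. There the counts for striatum alone and PFC alone were 2 and 9 for Drd2, 2 and 6 for Drd1, and 6 and 6 for Six3. They were 3 and 9 for Rarb, 1 and 6 for Rgs9, 1 and 8 for Isl1 and 7 and 8 for Adora2a. For Ppp1r1b they were 2 and 2, and for Pde10a 0 and 0.

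Of the Pde10a starts, the distal group and an internal group behaved unlike each other. The distal group (chr17:8525372-8526801) had a peak in 26.7% of striatum and 47.6% of PFC lists of equal length, against 63.6% of hippocampus and 61.0% of hypothalamus lists. The internal group (chr17:8801693-8803028) had a peak in 46.7% of striatum and 47.6% of PFC lists, against 9.09% of hippocampus and 7.32% of hypothalamus lists. Each group of starts within 2 kb of each other was ranked and tested on its own (8158 groups, limma), a test chosen after the peak positions were seen. Between striatum and hippocampus the distal group ranked lower in striatum by 18.5 points (difference -18.5 ± 5.02, adjusted p = 0.00322) and the internal group higher (19.1 ± 4.48, 0.000425), beside 6.2% of groups lower and 8.58% higher. Between striatum and hypothalamus the differences were -15.7 ± 5.10 (0.0223) and 20.6 ± 4.55 (0.000344), beside 6.41% and 6.47%. The distal call against hypothalamus was lost in 2 of 18 fits that left out a litter (differences of -18.2 to -13.9), and the other 3 calls held in all 18.

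**Figure D4:**
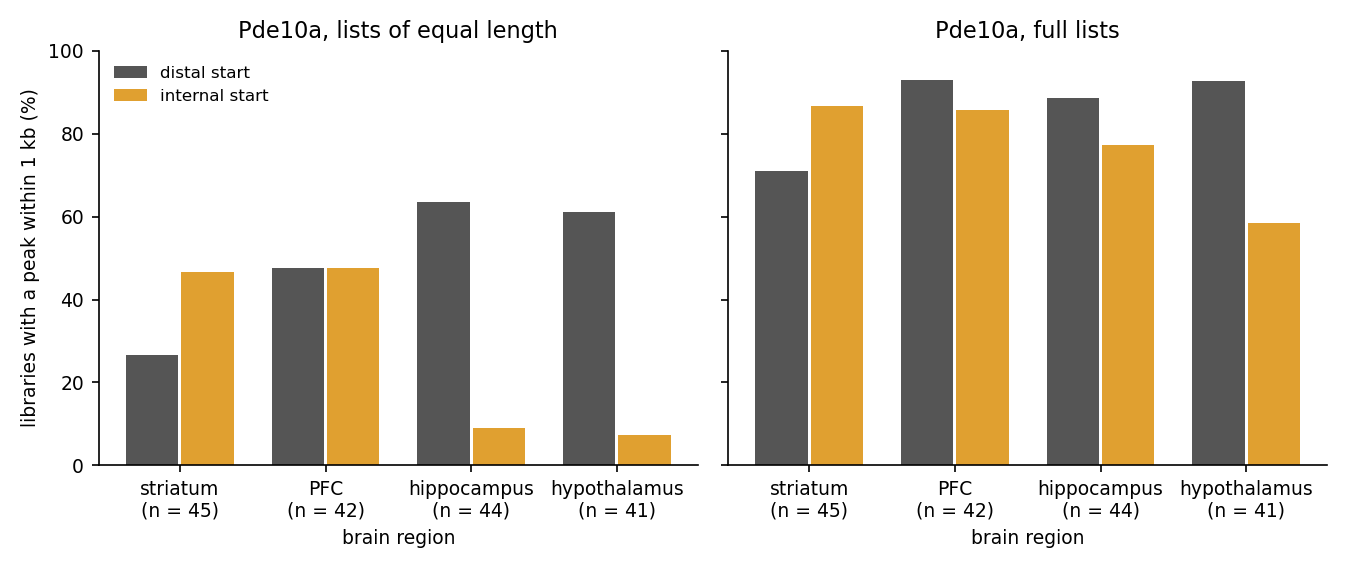
Share of libraries (%, vertical axis) with a peak within 1 kb of the distal (grey) and internal (yellow) start groups of Pde10a in each brain region, in lists of equal length (left) and full lists (right). In lists of equal length the grey bar is the taller in hippocampus (63.6% against 9.09%) and hypothalamus (61.0% against 7.32%), and the yellow bar in striatum (46.7% against 26.7%).

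In the full lists the directions were the same. The distal group ranked lower in striatum than in hippocampus (-14.6 ± 3.71, adjusted p = 0.000922) and PFC (-9.62 ± 3.73, 0.0369, and -12.8 ± 4.12, 0.0118, without the 13 libraries), and the internal group ranked higher than in hippocampus (11.8 ± 4.20, 0.0267) by limma, while Pde10a as a whole passed in neither comparison. Of all start groups 13.6% and 24.5% were lower than in hippocampus and PFC. Other Pde10a groups were tested in full lists only. Those from 8880426, 8893291 and 8924143 ranked higher in striatum than in hippocampus (15.4, 17.4 and 11.7 points). The group from 8849985 did not pass there (-4.7 ± 3.8, adjusted p = 0.401 by limma). Against hypothalamus 8849985, 8880426 and 8893291 were higher (14.7, 14.3 and 18.2 points), and 8924143 did not pass. Against PFC none passed, and 8893291 and 8924143 were higher without the 13. PFC also ranked higher than hippocampus at the internal group in lists of equal length, and lost that call without the 13 libraries with at most 1 cortical marker (10.2 points, adjusted p = 0.0671). The second start group of Rgs9, at 109250151, ranked higher in striatum than in PFC (12.2 ± 3.39, adjusted p = 0.00275 by limma, and 20.7 ± 3.48, 6.94e-07, without the 13 libraries), hippocampus (26.0 ± 3.37, 4.83e-12) and hypothalamus (25.6 ± 3.43, 1.26e-10) in the full lists, where 6.57%, 9.83% and 8.04% of start groups were higher. Its first group did not pass between striatum and PFC there (-8.81 ± 4.48, adjusted p = 0.119). The second Rgs9 group was chosen after its values were seen and was not tested in lists of equal length. It had no peak in hippocampus or hypothalamus, so those differences compare striatum with the tied rank of groups without a peak. The striatum consensus region over it, at chr11:109248887-109255604, had a peak in 71.1% of striatum and 71.4% of PFC full lists.

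Of 28 other genes of striatal projection neurons, 19 were tested: 8 ranked higher and 0 lower in striatum than in hippocampus, 10 higher and 1 lower than in hypothalamus, and 0 higher and 5 lower than in PFC. Over all promoters tested 7.82% and 6.38% were higher than in hippocampus and hypothalamus and 27.4% lower than in PFC, so 5 of 19 lower than in PFC is near the share of all promoters. Their median difference was 10.4, 10.3 and -6.46 points in that order, against 1.40, -0.175 and -4.01 over all promoters tested. Dlx6, a homeobox gene of forebrain GABAergic neurons, was higher in striatum by 23.3 ± 4.51 points than in hippocampus (adjusted p = 1.16e-05 by limma) and by 24.2 ± 4.58 than in hypothalamus (1.98e-05). Gad1, which makes GABA, was higher than in these by 21.6 ± 4.57 (8.78e-05) and 23.5 ± 4.65 (4.79e-05). Foxp2, a forkhead factor, was higher than in hippocampus (20.6 ± 4.45, 0.000121), and Lrrc10b higher than in hypothalamus (21.9 ± 4.8, 0.000302). Lower in striatum than in PFC were Meis2 (-26.2 ± 4.79, 1.85e-06), Bcl11b (-22.1 ± 4.47, 1.81e-05), Foxp1 (-13.5 ± 5.01, 0.0256) and Ptpn5 (-12.4 ± 4.90, 0.0373). The first 3 encode transcription factors and Ptpn5 a striatum-enriched phosphatase, which is also in the signalling list. Without the 13 PFC libraries 2 genes were higher and 2 lower in striatum than in PFC, and Foxp1 (-9.36 ± 5.56, 0.184) and Ptpn5 (-10.7 ± 5.55, 0.122) did not pass.

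Of 25 further genes of dopamine and cAMP signalling, 20 were tested, and 6 ranked higher and 2 lower in striatum than in hippocampus, 5 higher and 2 lower than in hypothalamus, and 0 higher and 6 lower than in PFC (median differences 5.03, 4.63 and -4.32 points). The 6 of 20 lower than in PFC again stand beside 27.4% of all promoters. Higher in striatum than in hippocampus were Arpp19 (24.1 ± 4.98, adjusted p = 5.11e-05), Rgs2 (21.5 ± 4.75, 0.000197), Pde1b (21.4 ± 4.94, 0.000394) and Rgs4 (18.2 ± 4.08, 0.000253). Arpp19 encodes a cAMP-regulated phosphoprotein, Rgs2 and Rgs4 regulators of G protein signalling, and Pde1b a phosphodiesterase. Gng7, the G protein subunit that couples D1 and A2a receptors to adenylyl cyclase in the striatum, was higher than in hypothalamus by 34.6 ± 4.60 points (1.82e-10), and the protein kinase A subunit gene Prkar1b was lower (-20.5 ± 4.58, 0.000414). Lower in striatum than in PFC were Rgs7bp (-20.1 ± 5.00, 0.000560), Gnb5 (-14.4 ± 4.94, 0.0152), Gnal (-14.2 ± 4.86, 0.0151) and Arpp19 (-12.5 ± 5.00, 0.0402). Without the 13 PFC libraries 1 gene was higher (Gng7, 13.8 ± 5.21, 0.0302) and 2 lower in striatum than in PFC.

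Markers of other cells gave the brain regions an identity to check against. Cortical projection neuron markers Slc17a7 (-33.3 ± 4.14, adjusted p = 1.01e-12), Tbr1 (-30.0 ± 4.46, 3.91e-09), Bhlhe22 (-15.5 ± 3.27, 7.45e-05) and Neurod6 (-12.9 ± 3.44, 0.00297) ranked lower in striatum than in hippocampus, and Tbr1 (-21.8 ± 4.48, 2.53e-05) and Neurod6 (-12.7 ± 3.45, 0.00184) lower than in PFC. Cux2 ranked higher than in PFC (10.0 ± 3.43, 0.0152). Without the 13 PFC libraries the differences from PFC were -32.8 ± 5.15 for Tbr1 (2.58e-08), -19.2 ± 3.92 for Neurod6 (2.36e-05) and 11.2 ± 3.78 for Cux2 (0.0136). The 13 were picked by their few peaks at these same cortical markers. Larger differences at Tbr1 and Neurod6 were thus built into the choice and are no separate check of identity. The orexin gene Hcrt ranked lower in striatum than in hypothalamus (-11.6 ± 3.47, 0.0128), the single hypothalamic marker tested of 10. Of 10 genes each, 5 hippocampal, 1 cholinergic, 2 GABA interneuron, 9 general neuron and 1 astrocyte marker were tested, and no microglia or endothelial marker had peaks in enough libraries. Against hippocampus 0, 0, 0, 1 and 0 of these ranked higher in striatum and 0, 0, 2, 1 and 1 lower. Against PFC 3, 1, 0, 1 and 0 ranked higher and 0, 0, 0, 3 and 0 lower, and against hypothalamus none ranked higher and 0, 0, 0, 1 and 0 lower. The general neuron markers lower in striatum than in PFC were Nefl (-18.2 ± 4.46, 0.000477), Eno2 (-15.1 ± 4.98, 0.0111) and Celf4 (-14.4 ± 4.38, 0.00579), beside -18.7 points at Drd1, and their part in the Drd1 difference was not tested. Without the 13 PFC libraries Nefl differed by -18.4, Eno2 by -16.8, Celf4 by -14.6 and Stmn2 by -11.3 points (adjusted p = 0.0449 for Stmn2). Isl1 is also in the cholinergic list. The oligodendrocyte marker Cnp ranked higher in striatum than in PFC (14.9 ± 4.26, 0.00319, and 18.9 ± 4.67, 0.000564, without the 13 libraries), hippocampus (18.2 ± 4.24, 0.000479) and hypothalamus (17.7 ± 4.31, 0.00144). Without the 10 libraries with many oligodendrocyte markers the 5 calls of the striatal genes against hippocampus and hypothalamus remained, with Drd1 at 18.1 and 17.1 points.

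Among the promoters whose ranks moved most like the mean rank of the 9 genes over the libraries of all brain regions were those of Sh3rf2 (Pearson r = 0.75), Htr1b (0.72), Stk32a (0.69), Gad1 (0.67), Dlx6 (0.66), Cmya5 (0.65), Isx (0.64), Kcnq5 (0.64) and S100a3 (0.63), in lists of equal length. Htr1b encodes a serotonin receptor and Kcnq5 a potassium channel subunit. The libraries share brain region and kit, and these correlations are descriptions. Within the 45 striatum libraries the correlations ran between 0.50 for Kcnq5 and 0.85 for Sh3rf2, and within the 42 PFC libraries between 0.51 for Dlx6 and 0.79 for Stk32a. Within the hippocampus they lay between -0.35 for Gad1 and 0.38 for S100a3.

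The striatum consensus list held wide regions over most of the 9 promoters. Striatum had 97 member regions with a total length of 406.1 kb and a median width of 3110 bp, against 2206 bp over all 60013 regions: 19 at promoters, 55 in introns, 1 in an exon and 22 between genes. Pde10a had 38 of them, Rarb 21, Rgs9 13, Drd1 7, Isl1 6, Six3 5, Ppp1r1b 3, and Drd2 and Adora2a 2 each. The Rgs9 domain at chr11:109284380-109298205 was 13826 bp wide and the Adora2a domain at chr10:75318652-75332448 was 13797 bp, wider than 99.0% and 98.9% of striatal regions. The internal Pde10a domain at chr17:8798538-8811773 was 13236 bp wide, while the region over its distal start at chr17:8525234-8528292 was 3059 bp. Drd1 had 9823 bp at chr13:54047102-54056924, Six3 8089 bp at chr17:85613508-85621596, Drd2 6801 bp at chr9:49340786-49347586 and Rarb 6307 bp at chr14:16569826-16576132. The Isl1 region at chr13:116304822-116308711 was 3890 bp and began 711 bp downstream of the nearest start. Wide regions were not particular to striatum. In the PFC list the widest region of a gene was 15948 bp at Pde10a, 14832 bp at Adora2a and 14540 bp at Rgs9. It was 10685 bp at Rarb, 9661 bp at Drd1, 5275 bp at Drd2, 4916 bp at Isl1 and 4120 bp at Ppp1r1b, with none at Six3. The median width of the 40 PFC member regions was 5147.5 bp, against 3478 bp over all PFC regions.

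The same genes had fewer regions in the other lists, which were built over different libraries and were shorter. As a share of its list the members had 0.162% of regions in striatum, 0.219% in PFC, 0.0556% in hippocampus and 0.0363% in hypothalamus. PFC had 40 member regions, with Rarb 12, Pde10a 11, Rgs9 8, Ppp1r1b 4, Drd1 2 and 1 each at Drd2, Adora2a and Isl1, and none at Six3. Hippocampus had 9 (Pde10a 6, and 1 each at Ppp1r1b, Rgs9 and Rarb) and hypothalamus 5 (Pde10a 3, and 1 each at Rgs9 and Rarb). Drd1, Drd2, Adora2a, Six3 and Isl1 had no region in hippocampus or hypothalamus. Of the 97 striatal regions, 42 overlapped a PFC region, 10 a hippocampus region and 5 a hypothalamus region, where 30.3%, 26.0% and 23.1% of all striatal regions overlapped the 3 lists. The striatal list was less shared among its own libraries: 37.9% of its regions had a peak in at least 50% of striatum libraries, against 98.9% in PFC, 99.4% in hippocampus and 90.9% in hypothalamus. Among the 97 member regions 45 did, so counts of regions cannot be compared between the lists. Of the 97, 23 had a peak in a higher share of striatum than of PFC libraries and 74 in a lower share in the full lists (medians 46.7% and 61.9%), and in lists of equal length 44 were higher, 44 lower and 9 equal. Against hippocampus 85 of the 97 were higher in the full lists (medians 46.7% and 11.4%) and against hypothalamus 92 (46.7% and 7.32%). In lists of equal length 72 were higher, 13 lower and 12 equal against hippocampus, and 70, 15 and 12 against hypothalamus. The 97 were taken from the striatum list, which favours a higher share in striatum in advance, and the same counts over all striatal regions were not made. The most shared was an intergenic region 15.7 kb upstream of Pde10a at chr17:8505197-8509697, with a peak in 43 of 45 striatum libraries.

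Treatment groups were compared within each brain region over all consensus regions (limma with sex as a term, ranks over the full lists). A region of a member was called in 2 of the 20 comparisons, all in striatum and all lower in MOR-LPS. The Rarb intron region at chr14:16586539-16588187, 10.7 kb from the nearest start, had a peak in 1 of 15 MOR-LPS libraries, against 6 of 13 SAL-LPS libraries. Its rank was 13.8, 25.1 and 42.2 (lowest, median, highest) in MOR-LPS, against 18.0, 44.8 and 83.1 in SAL-LPS. The ranges overlapped, and the difference was -21.9 ± 6.37 points (adjusted p = 0.0444), where 2.32% of all striatal regions were called and 0.365% were called lower.

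In MOR-LPS against MOR-SAL, where 0.253% of striatal regions were called and 0.133% were called lower, 2 of the 97 regions were. The region at chr17:85575242-85577849, 35.8 kb from Six3 and between genes, had a peak in 2 of 15 MOR-LPS libraries, against 5 of 7 MOR-SAL libraries. Its rank was 13.8, 25.1 and 67.1 in MOR-LPS and 27.4, 79.4 and 87.1 in MOR-SAL, a difference of -35.9 ± 8.59 points (adjusted p = 0.0322 by limma). The Pde10a intron region at chr17:8882029-8883529, 1.6 kb from a start, had a peak in 1 of 15 MOR-LPS libraries, against 4 of 7 MOR-SAL libraries. Its rank was 13.3, 25.1 and 42.2 in MOR-LPS and 29.4, 60.9 and 71.3 in MOR-SAL, a difference of -26.3 ± 6.47 points (adjusted p = 0.0416). The ranges overlapped at both regions.

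**Figure D5:**
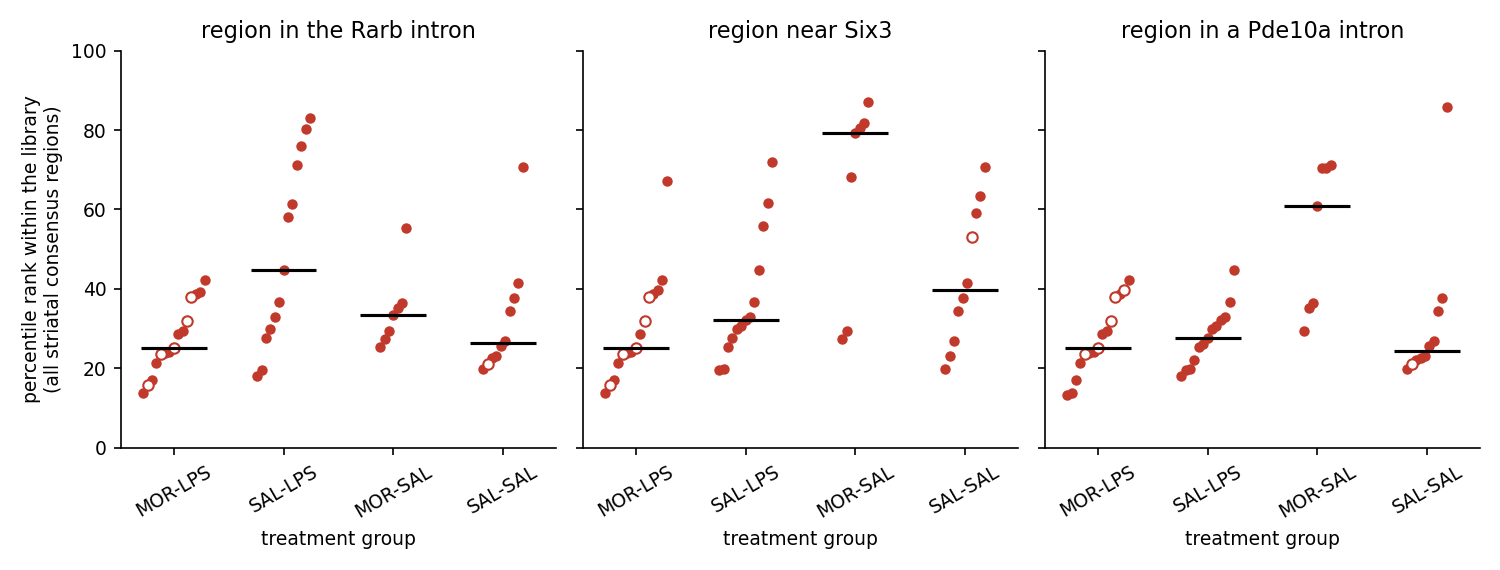
Percentile rank (vertical axis) of the 3 called regions in each striatum library, by treatment group (horizontal axis). Points are libraries, open points the 6 libraries with many oligodendrocyte markers, and lines the medians. MOR-LPS medians are 25.1 in each panel, against 44.8 in SAL-LPS at Rarb, 79.4 in MOR-SAL at Six3 and 60.9 in MOR-SAL at Pde10a.

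These 3 calls rested on few peaks. Ranks of regions without a peak move with list length, and the median list length was 65569 peaks in MOR-LPS, against 54471 in SAL-LPS and 46110 in MOR-SAL. In lists of equal length none of the 3 was called, and the difference was -0.04 points at Rarb, -6.55 at Six3 and 0.03 at Pde10a. Without the 6 striatum libraries with many oligodendrocyte markers, of which 5 were MOR-LPS, no striatal region was called by limma in any comparison, with 2619 to 4376 of 60013 at an unadjusted p under 0.05. The differences were then -20.7, -36.3 and -29.1 points (adjusted p = 0.910, 0.266 and 0.178). Leaving out single libraries kept the call in 31 of 45 fits for Rarb, 36 of 45 for Six3 and 34 of 45 for Pde10a, with adjusted p between 0.0122 and 0.1 over the 3 regions. With the log10 number of peaks as a term the Rarb region kept its call (-20.8, adjusted p = 0.0441 by limma), and the Six3 region (-34.7, 0.0712) and the Pde10a region (-21.5, 0.0943) lost theirs.

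The other striatum comparisons called no member region, beside 0.00667% of all regions in MOR-SAL against SAL-SAL, 0.0167% in the interaction and 0% in SAL-LPS against SAL-SAL (3062 regions at an unadjusted p under 0.05). No member region was called in PFC, hippocampus or hypothalamus. In PFC limma called 0 of 18272 regions in each of the 5 comparisons, with 540 to 2071 at an unadjusted p under 0.05. Without the 13 libraries it called 4 in SAL-LPS against SAL-SAL, none at a member, and 0 in the other 4 comparisons, with 699 to 1936 at an unadjusted p under 0.05. In hippocampus it called 0 or 1 of 16201 (at most 0.00617%), with 914 to 1553. In the hypothalamus 4.31% of all regions were called in MOR-LPS against SAL-LPS, 0.305% in SAL-LPS against SAL-SAL, 3.84% in MOR-LPS against MOR-SAL and 1.86% in the interaction of perinatal and adult treatment, and the 5 member regions were not among them. The member regions of smallest p there were an intergenic region 30.9 kb from Rgs9 at chr11:109216518-109219241 (MOR-LPS against SAL-LPS, -30.7 ± 11.1 points, adjusted p = 0.0798) and the distal promoter region of Pde10a at chr17:8525296-8529226 (MOR-LPS against MOR-SAL, -33.4 ± 11.2 points, 0.0612). The Rgs9 region had a positive difference in SAL-LPS against SAL-SAL (37.3 ± 11.9, 0.138), and its interaction was -50.1 ± 16.5 (0.0694), by limma. In PFC the smallest p was at an intron region of Rgs9 at chr11:109263490-109269222 (SAL-LPS against SAL-SAL, -29.0 ± 9.24, 0.496), and in hippocampus 32.0 kb upstream of Pde10a at chr17:8481278-8493410 (SAL-LPS against SAL-SAL, -18.9 ± 5.84, 0.231).

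In full lists 11882 promoters had enough peaks to be tested between treatments in striatum, among them 8 of the 9 genes (not Isl1), and none of the 8 passed in any comparison. There 0.48% of promoters were called in MOR-LPS against SAL-LPS, 0.362% in MOR-LPS against MOR-SAL, 0.0505% in MOR-SAL against SAL-SAL, 0.236% in the interaction and 0% in SAL-LPS against SAL-SAL. In MOR-LPS against SAL-LPS the smallest adjusted p of a member was at Pde10a (-9.24 ± 3.63 points, adjusted p = 0.175 by limma), followed by Drd1 (-20.1 ± 8.62, 0.222). A Drd1 peak was present in 66.7% of MOR-LPS, 76.9% of SAL-LPS, 85.7% of MOR-SAL and 80.0% of SAL-SAL striatum full lists. The 6 striatum libraries with many oligodendrocyte markers, 5 of them among the 15 MOR-LPS libraries, had a Drd1 peak in 33.3% of full lists, against 82.1% of the other 39, and the part of these libraries in the Drd1 difference was not tested. The shares for Ppp1r1b were 80.0%, 100%, 71.4% and 80.0%, and for Rarb 80.0%, 69.2%, 71.4% and 80.0%, in the same order. Pde10a had a peak in every striatum library of all 4 groups.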

How the data were processed

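H3K27ac was profiled in NeuN-sorted nuclei of 4 brain regions. The authors trimmed reads, aligned them to mm10 with Bowtie2 2.4.5, removed duplicates with SAMtools 1.15.1 and took each library's peaks from MACS2 2.2.7.1 (q 0.05), then built consensus regions per brain region with DiffBind 3.10.1. The methods state a minimum of 50% of samples per consensus region, which most of the striatum regions do not reach. The deposited peak lists give each peak a score, a ratio (fold enrichment over background) and the -log10 of its p and q values. They hold no read counts, so depth is unknown and the study's count model could not be run. Longer lists reach weaker peaks.

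Peaks were assigned to promoters within 1 kb of protein-coding starts (GENCODE annotation) and regions to the nearest start within 100 kb. Percentile ranks of -log10 p within each library were tested with limma 3.58.1 in R 4.3.3 (trend, two-sided), across brain regions with treatment group and sex as terms and within brain regions with group and sex. P-values were Benjamini-Hochberg adjusted over all features, with a threshold of 0.05. Other steps used Python 3.11.15, numpy 2.4.6, pandas 2.3.3 and scipy 1.17.1. The fits were tested on simulated data, permuted ranks with known shifts. Striatum against PFC promoters recovered 10 of 67 shifts of 10 points, 56 of 67 of 20 and 66 of 66 of 30. Striatal regions in MOR-LPS against SAL-LPS recovered 5 of 67 shifts of 20 points, 34 of 67 of 30 and 46 of 66 of 40. False calls numbered 4 and 2. The smallest shifts were thus mostly missed, and a feature without a call is not shown to be unchanged.

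Of 174 lists 172 were compared. A pair of identical hippocampus SAL-LPS male lists was counted as 1 sample, and a PFC SAL-SAL female list with fewer than 10000 peaks was left out. A PFC MOR-LPS female list carries peak names of another replicate, and its label was used. Libraries with the same replicate number were taken as the same animal (72 animals, 60 with several brain regions), and the correlation within animals was 0.0193. The study's sample table gives the first part of that number as the litter, and its methods count more litters than there are such numbers. Litters lie within 1 perinatal exposure, so litter and exposure cannot be told apart.

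The members and gene lists were chosen with earlier results of these data known. The text names all 9 genes, called regions and otherwise the region of smallest p per comparison, the 10 promoters most correlated with the mean rank of the 9, and up to 4 called genes of largest difference per list. A few regions and genes outside this rule (the Pde10a and Rgs9 start groups, the Pde10a region shared most, Gng7 against PFC) were chosen after their values were seen. Some genes that the rule names are not reported here.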

Additional observations from a re-analysis of the deposited data

How the results depend on the processing

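Counts are members called by limma. With the animal as a replicate block the counts did not change (2 in striatum against PFC, 5 against hippocampus and 5 against hypothalamus), and the block changed no other call. Striatum against PFC (2 called) gave 1 with a 500 bp window, 3 when ranked by fold enrichment, 3 without the 13 PFC libraries with few cortical markers, 3 without the PFC library lacking neuron markers, 1 in full lists without the 13, and 1 to 3 when a litter was left out. Rgs9 lost its call there without litter 3, 4 or 15, and Six3 gained one without litter 1, 3, 9 or 13. The uncalled Pde10a difference (-1.64) was 2.09 in full lists, 2.09 at a -log10 q of at least 2, 0.63 by fold enrichment, 3.70 in full lists without the 13, 1.11 in full lists without the PFC library lacking neuron markers and -4.53 to 0.60 over litters. The uncalled Rarb difference (0.98) was -1.45 in full lists, -0.72 at that q, -2.06 in full lists without that library, and -1.17 to 3.35 over litters. Striatum against hippocampus and against hypothalamus (5 each) gave 2 each with a 500 bp window, and 3 to 5 against hypothalamus over litters. PFC against hippocampus (4) gave 8 in full lists, 8 at the stricter q, 2 without the 13 and 7 in full lists without them. PFC against hypothalamus (4) gave 8, 8 and 2, and 4 to 5 over litters. Hypothalamus against hippocampus (0) gave 2 in full lists, 3 at the stricter q and 2 in full lists without the 13.

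In striatum MOR-LPS against MOR-SAL (2) gave 1 with regions assigned by annotated gene start, and 0 in lists of equal length, with the number of peaks as a term, without the libraries with many oligodendrocyte markers and for promoter ranks. MOR-LPS against SAL-LPS (1) gave 0 in the same settings other than the number of peaks, and 0 at a -log10 q of at least 2. The Pde10a intron difference (-26.3) was 0.03 in lists of equal length. Leaving out single libraries gave 0 to 2 in both comparisons, and in hypothalamus 0 to 2 for MOR-LPS against SAL-LPS, 0 to 1 against MOR-SAL and 0 to 1 for the interaction. Except where stated, the cause was not tested. No read depth was given by the files.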
